A study of Homo sapiens with 5 samples.

Results

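The regions described here are 3 blocks of closely spaced chromatin immunoprecipitation peaks in U2932, an established human lymphoma cell line: a proximal and a distal block on the long arm of chromosome 1 and a block on the long arm of chromosome 11, by their names in bands 1q21 and 11q23-q24. The members are all peaks whose midpoint lies, on build hg19, on chromosome 1 from 145000000 to 148000000 (the proximal block) or from 149000000 to 151000000 (the distal block), or on chromosome 11 from 119000000 to 123000000. Of the 1150695 peaks in the 6 deposited lists, 10842 met this rule: 2383 in the proximal and 2434 in the distal chromosome 1 block and 6025 in the chromosome 11 block. The blocks were selected on measured values, namely that antibody 1 peaks called against input are dense there and antibody 1 peaks called against IgG are not, so the antibody 1 values below are a description and support nothing. Antibody 2 and RNA polymerase II were other libraries, but they were called against the same 2 controls.

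The U2932 cells were untreated in all libraries. For 2 libraries chromatin was precipitated with rabbit polyclonal antibodies to PRDM11 that are not sold commercially (antibody 1 and antibody 2), and for 1 with an antibody to RNA polymerase II; rabbit IgG and input chromatin without antibody were the controls. With 1 library per antibody or control, 5 in all, there is no replicate error and no test between conditions was made. The lists give positions without scores or read counts, so the depth behind a peak is unknown. Ranges in parentheses are exact 95% intervals for counting error alone, as if peaks were independent, which neighbouring peaks need not be. Every list called against input shares 1 input library and every list called against IgG shares 1 IgG library. What the ChIP libraries and what the controls contribute to a difference between the lists cannot be told apart.

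PRDM11 belongs to the PR domain proteins, a family of chromatin and transcription regulators whose PR domain is related to the SET domain of histone methyltransferases. RNA polymerase II transcribes protein-coding genes, and its peaks usually gather at the starts and along the bodies of active genes. In peak calling, the reads of a precipitated library are set against those of a control, so a peak depends on both. Band 1q21 is known for segmental duplications, a cluster of histone genes and the genes MCL1, which encodes an inhibitor of apoptosis, and BCL9, a cofactor of beta-catenin. Band 11q23 holds CBL, which encodes a ubiquitin ligase of receptor signalling, and 11q24 holds HSPA8, which encodes a constitutive heat shock protein. Which of the peaks lie at these genes was not analysed here.

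All 3 libraries were dense in the blocks when called against input, and far less so when called against IgG. The blocks together span 9 Mb, or 0.300% of the length that the lists cover. Within them lay 5.87% (5.67% to 6.07%) of all antibody 1 peaks called against input, 0.699% (0.676% to 0.723%) of the antibody 2 peaks and 2.66% (2.55% to 2.77%) of the RNA polymerase II peaks. Against IgG the blocks held 0.630% of the antibody 1 list, 0.331% of the antibody 2 list and 0.997% of the RNA polymerase II list. Antibody 1 had 3172 peaks against input and 85 against IgG in the blocks, a ratio of 37.3 (30.1 to 46.9). RNA polymerase II had 2137 against input and 500 against IgG, a ratio of 4.27 (3.88 to 4.72). Antibody 2 had 3405 against input and 1543 against IgG, a ratio of 2.21 (2.08 to 2.35). In the flanks, taken as 5 Mb on each side without the neighbouring block, the antibody 1 ratio was 1.94 (1.59 to 2.37), that of RNA polymerase II 1.10 (0.974 to 1.24) and that of antibody 2 1.00 (0.951 to 1.06). Over the whole lists antibody 1 had 54038 peaks against input and 13499 against IgG. RNA polymerase II had 80364 and 50161, and antibody 2 had 486796 and 465837. For antibody 1 and RNA polymerase II the excess against input was thus smaller in the flanks than over the whole lists. For antibody 2 and RNA polymerase II the interval of the blocks did not overlap that of the flanks. The antibody 1 contrast chose the blocks, so nothing is read from its intervals.

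Density is given as peaks per 100 kb. In the chromosome 11 block antibody 1 had 46.8 (44.7 to 49.0) peaks per 100 kb against input, compared with 1.56 in its flanks and 1.80 over the whole list. Against IgG it had 0.900 (0.630 to 1.25) in the block and 0.650 (0.502 to 0.828) in the flanks. Antibody 2 had 44.0 (41.9 to 46.1) in the block and 16.4 in the flanks against input, and 22.4 (21.0 to 23.9) in the block and 16.4 in the flanks against IgG. RNA polymerase II had 29.0 (27.3 to 30.7) in the block and 2.61 in the flanks against input, and 7.58 (6.75 to 8.48) in the block and 2.48 in the flanks against IgG. Thus antibody 2 and RNA polymerase II were denser in this block than in its flanks with either control, but more so against input, by 2.69-fold (2.51 to 2.88) and 11.1-fold (9.69 to 12.7), than against IgG, by 1.37-fold (1.26 to 1.49) and 3.05-fold (2.57 to 3.63). The antibody 2 difference against IgG came from the right flank, with 22.4 in the block and 11.02 in that flank, a ratio of 2.03 (1.83 to 2.26). The left flank had 21.7, a ratio of 1.03 (0.944 to 1.13), and among peaks of 200 bp or wider the ratio over both flanks was 1.14 (0.871 to 1.49). The RNA polymerase II ratio against IgG was 1.74 (1.46 to 2.08) over the left and 12.6 (8.66 to 19.0) over the right flank. With flanks of 2 Mb the RNA polymerase II ratios were 5.62 (4.84 to 6.55) against input and 1.46 (1.22 to 1.76) against IgG.

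In the distal chromosome 1 block all 3 libraries were again denser than in the flanks against input, whereas against IgG the interval of the block-to-flank ratio lay above 1 for RNA polymerase II and included 1 for the PRDM11 antibodies. Against input it had 31.0 (28.6 to 33.5) antibody 1, 39.3 (36.6 to 42.1) antibody 2 and 29.1 (26.7 to 31.5) RNA polymerase II peaks per 100 kb, with 2.06, 16.2 and 4.36 in its flanks. Against IgG antibody 1 had 1.00 (0.611 to 1.54) in the block and 1.26 (1.01 to 1.55) in the flanks, and antibody 2 had 14.4 (12.8 to 16.2) in the block and 16.1 (15.2 to 17.1) in the flanks. RNA polymerase II against IgG was denser in the block than in the flanks, at 6.90 and 3.81 per 100 kb, a ratio of 1.81 (1.46 to 2.23). Over bins that hold a peak, antibody 2 against IgG was sparser in the block, with a ratio of 0.782 (0.685 to 0.891). With flanks of 2 Mb the RNA polymerase II ratio was 12.3 (9.58 to 15.9) against input and 3.45 (2.53 to 4.75) against IgG, and that of antibody 1 against input was 22.7 (16.5 to 31.9), compared with 15.1 (12.6 to 18.2) over flanks of 5 Mb.

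The proximal chromosome 1 block was the sparsest of the 3 against input. It had 22.6 (21.0 to 24.4) antibody 1, 28.7 (26.8 to 30.6) antibody 2 and 13.3 (12.0 to 14.6) RNA polymerase II peaks per 100 kb, with 0.988, 6.72 and 1.23 in its flanks. Against IgG antibody 1 had 0.967 in the block and 0.375 in the flanks, a ratio of 2.58 (1.49 to 4.44), RNA polymerase II had 1.97 and 0.850, a ratio of 2.31 (1.60 to 3.33), and antibody 2 had 11.9 and 6.21, a ratio of 1.92 (1.67 to 2.20). These 3 ratios depend on the flank: over bins that hold a peak their intervals included 1, at 1.54 (0.892 to 2.65), 1.38 (0.958 to 1.99) and 1.15 (0.999 to 1.32). In its left flank 33 of 50 bins of 100 kb held no peak of any list, which lowers the flank densities with both controls. No list had a peak from 140000001 to 142500000, and whether reads can map there was not examined. These bins are also part of the flanks of the 3 blocks together. Against its right flank alone, 3 Mb long, antibody 2 had 28.7 in the block and 14.0 in the flank against input, a ratio of 2.04 (1.82 to 2.30). Against IgG it had 11.9 in the block and 14.2 in the flank, a ratio of 0.840 (0.728 to 0.969). The 2 controls thus put antibody 2 density in this block on opposite sides of that of its right flank. The distal block stood likewise to its own right flank, with a ratio of 1.91 (1.73 to 2.09) against input and of 0.671 (0.588 to 0.765) against IgG. RNA polymerase II against IgG had 1.97 in the proximal block and 2.00 in its right flank, a ratio of 0.983 (0.675 to 1.43). With flanks of 2 Mb, the ratios of the proximal block were 5.97 (4.53 to 7.98) for antibody 2 and 5.90 (2.99 to 12.9) for RNA polymerase II against IgG. Against input they were 13.9 (10.4 to 18.9) for antibody 1, where flanks of 5 Mb gave 22.9 (18.1 to 29.3), and 7.61 (6.25 to 9.34) for antibody 2, where those gave 4.26 (3.82 to 4.76). Over bins that hold a peak, antibody 1 had a ratio of 13.7 against input, antibody 2 one of 2.55 and RNA polymerase II one of 6.47.

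**Figure D1:**
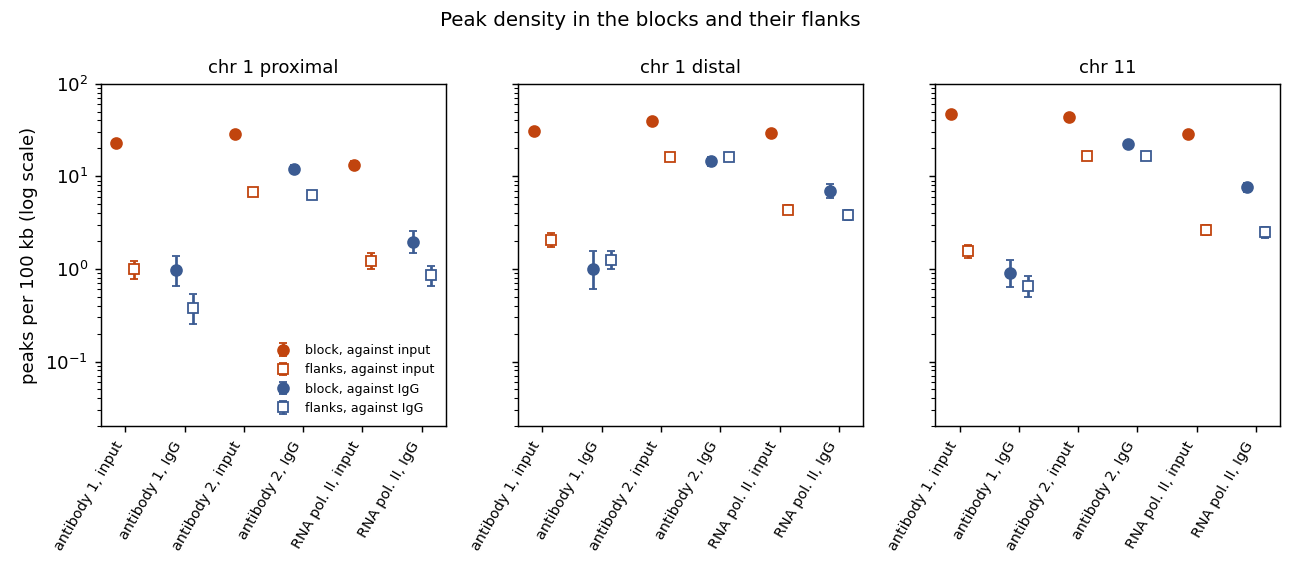
Peak density per 100 kb (log scale) in each block (filled circles) and in its flanks (open squares), by library and control; bars are exact 95% Poisson intervals. Antibody 1 peaks called against input reach 46.8 per 100 kb in the chromosome 11 block and lie near 1 per 100 kb in all 3 blocks when called against IgG.

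In bins of 100 kb the excess against input covered 58 of the 90 bins for antibody 1. A bin counted as called when its input list had 5 or more peaks, and no fewer than 5 times the IgG count after 1 was added to that count. Over the genome 2.54% of the bins were called for antibody 1; RNA polymerase II had 0.934% and antibody 2 had 0.465%. The antibody 1 count comes from the contrast that chose the blocks, so nothing is read from it. For RNA polymerase II 39 of the 90 bins were called, or 43.3%, and for antibody 2 6 bins, or 6.67%. Of the antibody 1 bins, RNA polymerase II was also called in 22 of 30 on chromosome 11, in 13 of 17 in the proximal and in 4 of 11 in the distal chromosome 1 block. All 3 libraries were called together in 1 of the 90 bins, in the distal block. Bins called in more than 1 library were not counted over the genome, so nothing is read from these joint counts. A bin can also be dense against input and still not be called. In the distal block, uncalled bins held 81, 104 and 85 RNA polymerase II peaks against input, with 16, 20 and 41 against IgG.

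On chromosome 11 the called antibody 1 bins formed 1 unbroken run of 30, from 119200001 to 122200000. The run held 1841 antibody 1 peaks against input and 29 against IgG. Over the whole block antibody 1 had a median of 47 peaks per bin against input, with a range of 0 to 135, and a median of 0 against IgG, with a range of 0 to 5. For antibody 2 the medians were 44.5 (range 7 to 88) against input and 25 (range 6 to 34) against IgG. For RNA polymerase II they were 25 (0 to 99) and 0 (0 to 92). The bin from 119500001 to 119600000 was the densest for all 3 libraries against input, with 135 antibody 1, 88 antibody 2 and 99 RNA polymerase II peaks; against IgG it held 5, 16 and 30.

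In peak number, a stretch of 200 kb within that block went against the rest of it. From 121300001 to 121500000 RNA polymerase II had 171 peaks against input and 168 against IgG, a ratio of 1.02 (0.818 to 1.27), where the block as a whole had 3.82 (3.36 to 4.35). Over the block 300 RNA polymerase II peaks against IgG were found again against input, and 178 peaks against input overlapped one against IgG. Several IgG peaks can thus lie in 1 input peak, so similar counts do not mean similar coverage. The bases covered in this stretch were not measured. In the same 200 kb antibody 1 had 147 peaks against input and 4 against IgG, and antibody 2 had 127 and 54. Both of the widest RNA polymerase II peaks of the block against IgG lay here. The first, from 121321223 to 121326532, was 5310 bp wide and the second, from 121326691 to 121328820, was 2130 bp wide; against input they were 7497 bp and 2435 bp. The first overlapped 2 antibody 1 peaks against IgG and the second overlapped 0. The stretches given here and below were picked after the profile was seen.

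**Figure D2:**
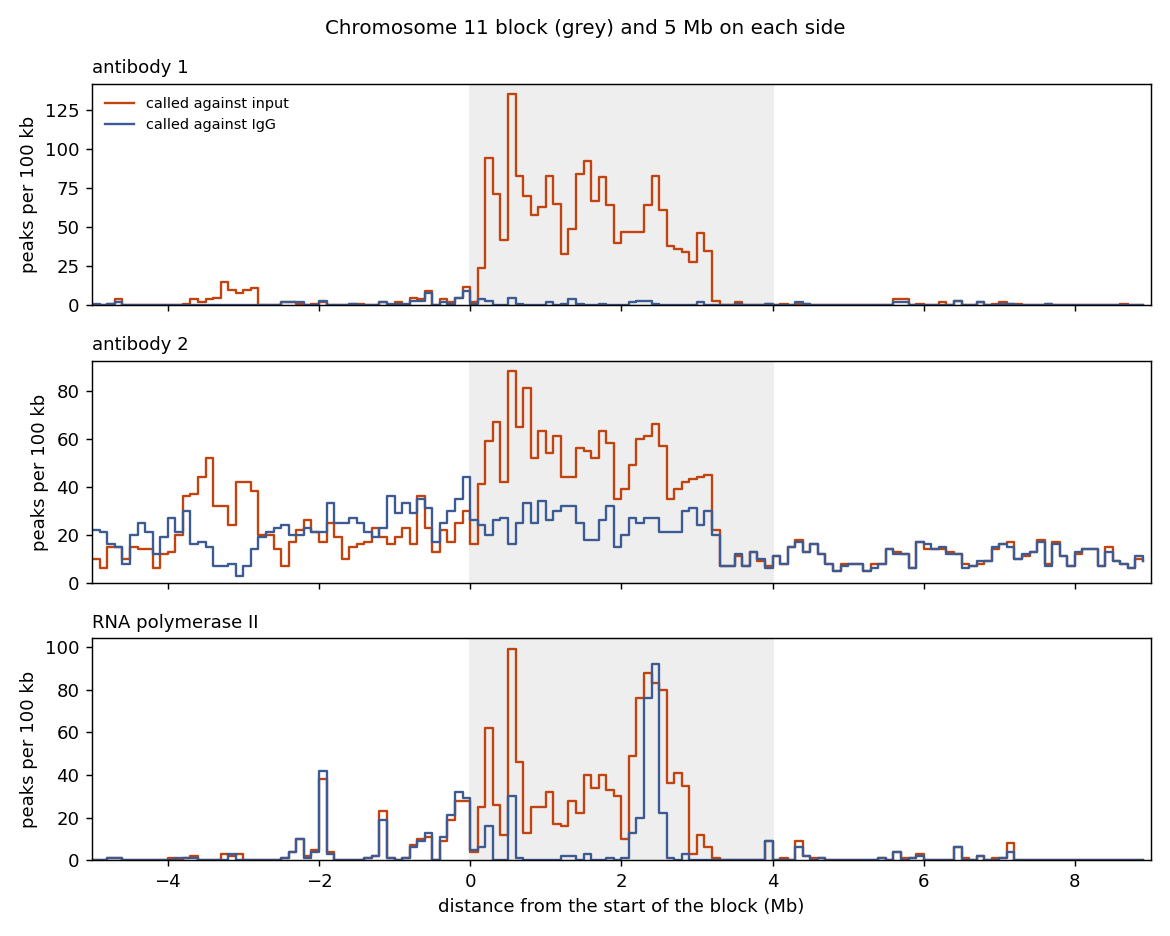
Peaks per 100 kb along chromosome 11, by distance in Mb from the start of the block (grey), for each library called against input (red) and against IgG (blue). The antibody 1 and antibody 2 lists against input step up just inside the block, at 119170001, and down before its end, at 122220000. For RNA polymerase II against input the fitted left border lay before the block, at 118740001. The RNA polymerase II lists meet at 171 and 168 peaks in 1 stretch of 200 kb.

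The flanks of the chromosome 11 block were not uniform. On the left side, from 115600001 to 116200000, a stretch of 600 kb had 59 antibody 1 peaks against input and 0 against IgG. Antibody 2 had 210 there against input and 46 against IgG, a ratio of 4.57 (3.30 to 6.43). RNA polymerase II had 8 and 3 there. Between this stretch and the block, from 116500001 to 119000000, antibody 2 went the other way, with 494 peaks against input and 671 against IgG, a ratio of 0.736 (0.654 to 0.828). Antibody 1 had 55 and 46 there and RNA polymerase II 204 and 210, with intervals that included equal numbers. At the beginning of the left flank, from 114000001 to 115000000, antibody 2 again had fewer peaks against input (117) than against IgG (179). The right flank showed no such difference, with 558 antibody 2 peaks against input and 551 against IgG.

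Both chromosome 1 blocks were interrupted. In the proximal block 8 stretches of at least 50 kb without a peak of any of the 6 lists added up to 1090 kb, or 36.3% of the block; in the distal block there were 4 such stretches, or 15.5%, and in the chromosome 11 block there were 0. The longest ran from 147417603 to 147710080, over 292 kb. Inside the proximal block the antibody 1 peaks against input lay in 3 groups: 226 from 145000001 to 145800000, 402 from 146500001 to 147400000 and 45 from 147700001 to 147900000, against 16, 7 and 5 called against IgG. From 145800001 to 146500000 the lists were sparse with both controls, with 6 antibody 1 peaks against input and 1 against IgG, 20 and 18 for antibody 2, and 2 and 1 for RNA polymerase II.

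In the second of these groups RNA polymerase II was sparse against IgG. From 146500001 to 147400000 it had 181 peaks against input and 11 against IgG, a ratio of 16.5 (8.98 to 33.6). From 145000001 to 145800000 the ratio was 4.55 (3.27 to 6.45), with 200 and 44 peaks. The antibody 2 ratios in these stretches, 2.52 (2.12 to 3.01) and 2.55 (2.06 to 3.18), had overlapping intervals. The densest bin of the proximal block for all 3 libraries against input ran from 145500001 to 145600000, with 62 antibody 1, 69 antibody 2 and 53 RNA polymerase II peaks, and 6, 12 and 17 against IgG.

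The distal chromosome 1 block held its peaks in less than its full length. In its first 300 kb, from 149000001 to 149300000, antibody 1 had 29 peaks against input and 1 against IgG. Antibody 2 had 64 and 45 there and RNA polymerase II 9 and 3. From 149300001 to 149800000 the antibody 1 lists were empty with either control, and antibody 2 had 20 peaks against input and 18 against IgG. From 149900001 to 150200000 antibody 1 had 133 peaks against input and 6 against IgG. The next 400 kb, from 150200001 to 150600000, were the densest of the block, with 397 antibody 1, 377 antibody 2 and 393 RNA polymerase II peaks against input. Within them the densest bin differed by library: 150400001 to 150500000 for antibody 1 (117 peaks against input), the next 100 kb for antibody 2 (123 peaks) and the 100 kb before for RNA polymerase II (123 peaks).

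In these 400 kb the antibody 2 lists lay far apart. Per 100 kb antibody 2 had 94.2 peaks against input and 10.2 against IgG, a ratio of 9.20 (6.65 to 13.0) in peak number. In the 300 kb before it had 63.0 and 31.0, a ratio of 2.03 (1.58 to 2.63). In the 300 kb from 150700001 to 151000000 it had 18.7 and 19.0, a ratio of 0.982 (0.667 to 1.45). Of these 3 stretches, antibody 2 density against IgG was lowest where its density against input was highest. RNA polymerase II did not share this: in the densest 400 kb it had 98.2 peaks per 100 kb against input and 22.2 against IgG, and in the 300 kb before 29.0 and 4.00, so that both lists were higher in the densest stretch.

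**Figure D3:**
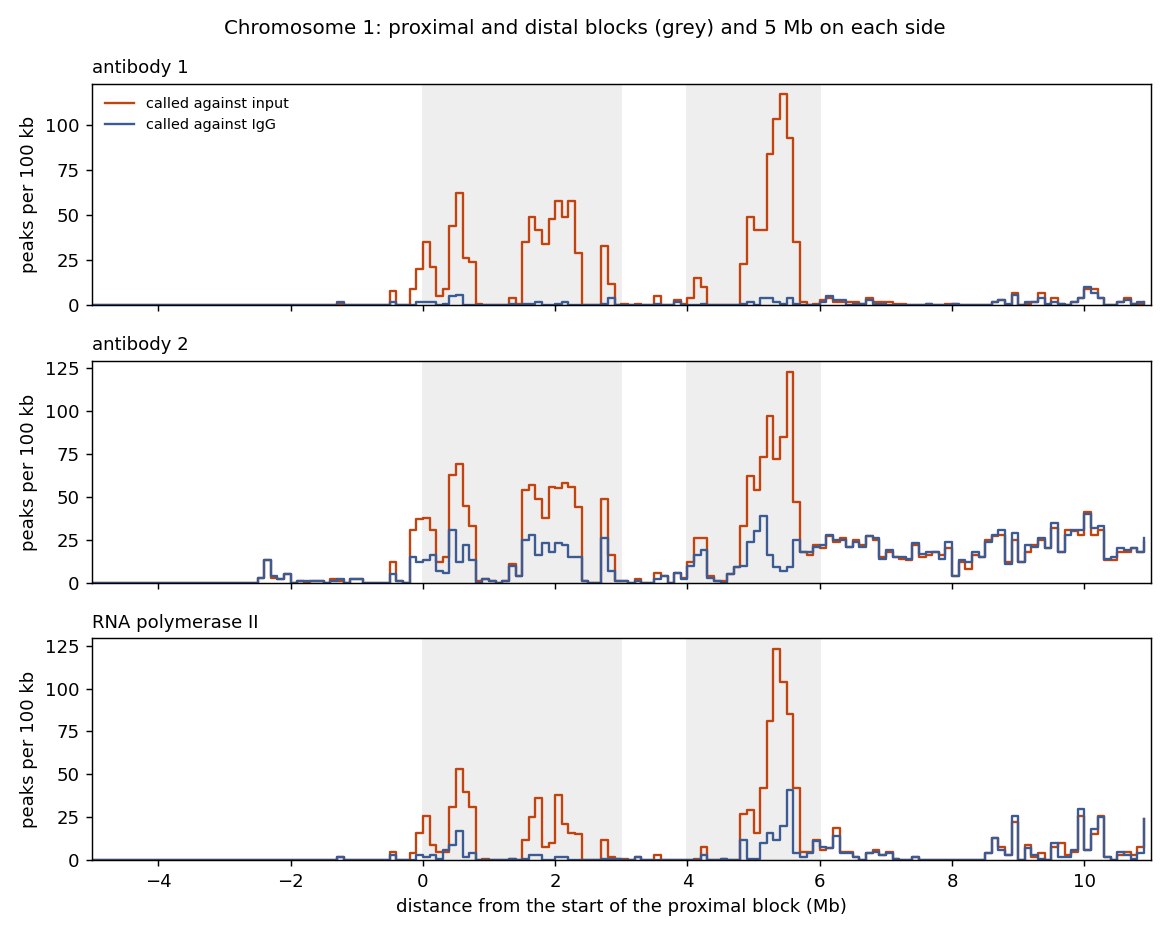
Peaks per 100 kb along chromosome 1, by distance in Mb from the start of the proximal block, for each library called against input (red) and against IgG (blue); grey marks the proximal and the distal block. In the densest 400 kb of the distal block antibody 2 reaches 94.2 peaks per 100 kb against input and 10.2 against IgG.

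Across the 100-kb bins with a peak, antibody 1 and antibody 2 densities against input followed each other closely within each block. Pearson's r was 0.92 and Spearman's rho 0.89 over 40 bins on chromosome 11, 0.97 and 0.96 over 27 bins in the proximal block and 0.91 and 0.95 over 20 bins in the distal block. Antibody 1 against input and RNA polymerase II against input had r of 0.71 on chromosome 11, 0.77 in the proximal and 0.96 in the distal block, and rho of 0.73, 0.84 and 0.90. Antibody 1 against input and antibody 2 against IgG, which share no control, had r of 0.44, 0.79 and 0.09 and rho of 0.36, 0.79 and 0.34 in the same order of blocks. Antibody 1 against input and RNA polymerase II against IgG, which share no control either, had r of 0.31, 0.44 and 0.73 and rho of 0.25, 0.46 and 0.69. These bins belong to single libraries, the pairs called against input share the input library, and all pairs share the mappable length of a bin, so they are given as a description only.

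The rule sets the borders in whole Mb, and the antibody 1 list against input placed them elsewhere. For each side the position was taken that best splits the counts per 10 kb into 2 constant rates, and positions within 2 log units of the best give its interval. Only splits with the higher rate toward the block were allowed. The search ran from the block midpoint to the end of the flank, or to the neighbouring block. Every list therefore returned a border, whether or not it had an edge. Densities given inside and outside a border hold for the 2 parts of this search range only. The chromosome 11 block began at 119170001 and ended at 122220000, in each case with an interval no wider than the bin. Its counts changed abruptly: 101 antibody 1 peaks lay in the 100 kb inside the left border and 0 in the 100 kb outside it, and 31 and 0 at the right border. The antibody 2 list against input gave the same 2 positions, with 69 peaks inside and 20 outside on the left, and a lower density outside on the right too. The RNA polymerase II list against input gave 118740001 and 121840000 instead. On the left its best split lay in the flank, where it had 204 peaks against input and 210 against IgG from 116500001 to 119000000.

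The distal chromosome 1 block began at 149850001 for antibody 1 and antibody 2 and at 149810001 for RNA polymerase II, all against input, and ended between 150660000 and 150700000 in the 3 lists. The antibody 1 counts in the 100 kb on each side were 47 inside and 2 outside on the left, and 35 inside and 2 outside on the right. The proximal block began outside the limit of the rule, between 144840001 and 144860001 in the 3 input lists, and its densest part ended between 147380000 and 147400000. Across the rule's own limit at 145000000 there was no step: 35 antibody 1 peaks against input lay in the 100 kb inside it and 20 in the 100 kb outside. The last peak outside, from 144997784 to 144997970, was 187 bp wide and the first inside, from 145005510 to 145005685, was 176 bp wide. Peaks between the fitted start and this limit were counted in the left flanks of both chromosome 1 blocks and raise those flank densities. The left flank of the proximal block had 38 antibody 1 peaks against input. Of these, 20 lay in the last 100 kb before the limit and 9 in the 100 kb before that. At the other 5 limits the 100 kb on either side held at most 12 antibody 1 peaks each.

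Against IgG the same fit gave borders at or near the input positions on some sides of the chromosome 1 blocks. On chromosome 11 the borders against IgG lay elsewhere, except that of antibody 2 at the right side, whose interval included its input border. At the left side of the proximal block antibody 2 against IgG had its border at 144840001, the position of its input border, with 9.94 peaks per 100 kb inside and 0.909 outside. At the right side it had its border at 147380000, with 20.9 from the block midpoint to the border and 3.21 beyond. The part beyond includes the last group of this block, with 33 antibody 2 peaks against IgG from 147700001 to 147900000. Over the whole proximal block antibody 2 against IgG had 11.9 per 100 kb. At the left side of the distal block RNA polymerase II against IgG had its border at 149810001, again the position of its input border, with 6.84 inside and 0.331 outside. Antibody 2 against IgG began at 148850001 there, outside the distal block, and changed at 150200000 on the right, with 34.5 inside and 20.7 outside. On chromosome 11 the antibody 2 list against IgG changed at the right border, at 122310000 (122220000 to 122330000), where density was 24.9 per 100 kb inside and 10.7 outside. On the left its best split lay at 116320001, far out in the flank, with 26.1 per 100 kb on the block's side and 16.1 beyond. At the left border fitted to antibody 1, antibody 2 against IgG had 21 peaks in the 100 kb inside and 22 in the 100 kb outside, where its list against input had 69 and 20. RNA polymerase II, in contrast, was denser inside with both controls, with 74 peaks inside and 2 outside against input and 22 inside and 2 outside against IgG. Antibody 1 against IgG had 6 and 0. At the right border antibody 2 had 44 inside and 16 outside against input and 29 and 16 against IgG.

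**Figure D4:**
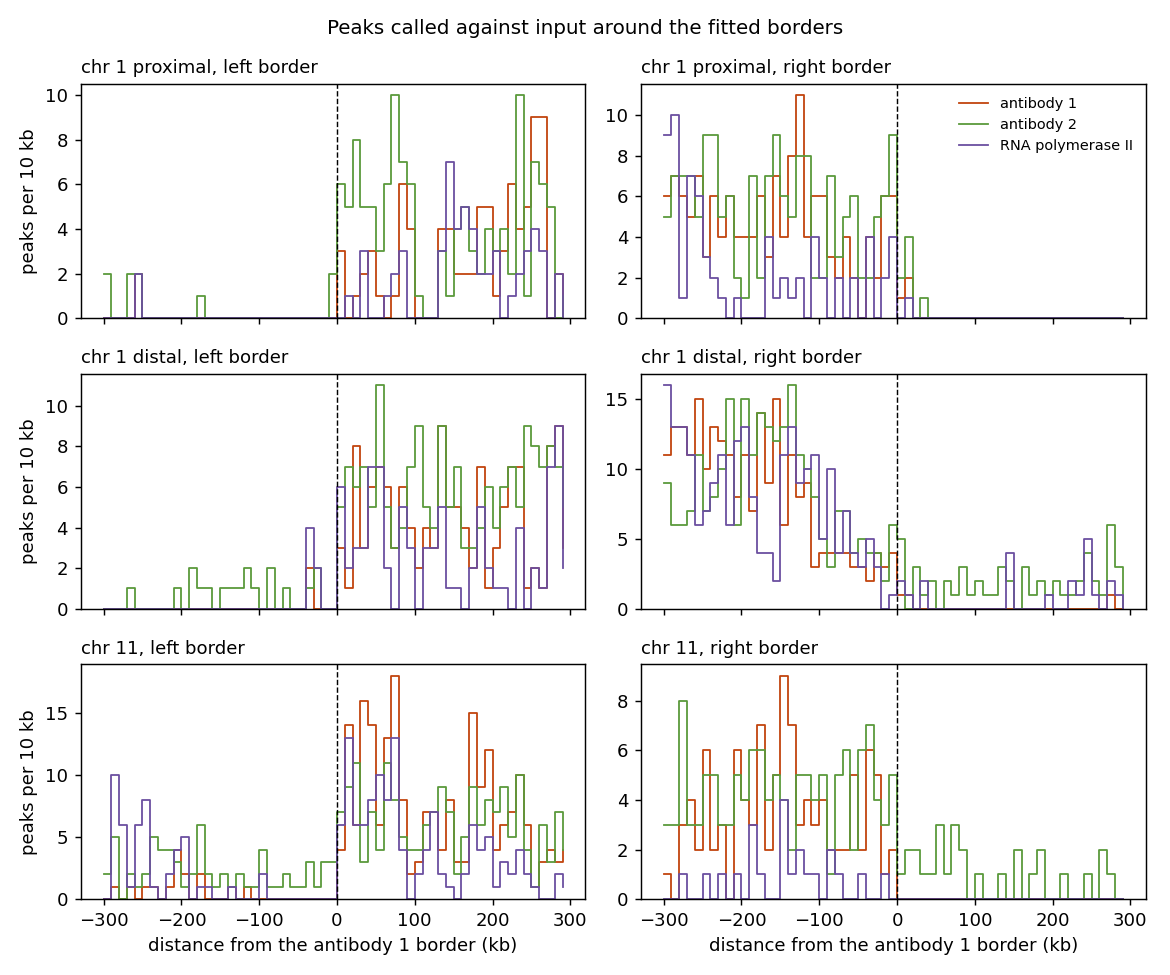
Peaks per 10 kb called against input around the borders fitted to the antibody 1 list (dashed line), by distance in kb, for antibody 1 (red), antibody 2 (green) and RNA polymerase II (purple). At the left border of the chromosome 11 block the antibody 1 count is 101 in the 100 kb inside and 0 in the 100 kb outside.

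Between the antibody 1 borders the share of bases that peaks covered differed by block. In the distal chromosome 1 block, over 0.850 Mb, RNA polymerase II peaks against input covered 29.5% of the bases, antibody 1 peaks 19.7% and antibody 2 peaks 12.0%; against IgG they covered 6.69%, 0.738% and 3.06%. In the chromosome 11 block, over 3.05 Mb, the shares against input were 14.5% for RNA polymerase II, 12.9% for antibody 1 and 8.04% for antibody 2, and against IgG 3.35%, 0.262% and 3.65%. In the proximal block, over 2.53 Mb, it was lower and RNA polymerase II was not the highest: 4.64% for RNA polymerase II, 5.62% for antibody 1 and 5.04% for antibody 2 against input, and 0.950%, 0.306% and 1.93% against IgG. The median gap between neighbouring antibody 1 peaks in the chromosome 11 block was 792 bp against input and 34966 bp against IgG.

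The peaks of the blocks were mostly narrow. The lists carry no score, so width stands in for peak size. Antibody 1 peaks against input had a median width of 172 bp on chromosome 11, 173 bp in the proximal and 200 bp in the distal chromosome 1 block, where the whole list had 172 bp. Peaks of 500 bp or wider made up 2.78% of the antibody 1 peaks on chromosome 11, 3.53% in the proximal and 11.3% in the distal block, against 12.0% of the whole list. RNA polymerase II showed its highest share in the distal block too, with 17.2% of its peaks against input at 500 bp or wider on chromosome 11, 9.55% in the proximal and 22.9% in the distal block, and 19.3% over the whole list. For antibody 2 the share of peaks at the minimum width of 123 bp was 73.6% on chromosome 11, 72.7% in the proximal and 71.8% in the distal block, and 77.8% over the whole list.

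Nearly all peaks called against IgG in the blocks were found again against input, overlapping by at least 1 bp. For antibody 1 this was 85 of 85, or 100% (95.8% to 100%), compared with 81.3% (74.2% to 87.1%) in the flanks. For antibody 2 it was 97.0% (96.0% to 97.8%) in the blocks and 79.8% (78.3% to 81.3%) in the flanks, and for RNA polymerase II 98.8% (97.4% to 99.6%) and 85.3% (81.9% to 88.2%). Over the whole lists 81.3% of antibody 1, 93.2% of antibody 2 and 89.4% of RNA polymerase II peaks were found again, so the antibody 2 share in the blocks lay nearer to that of its whole list than the share in the flanks did. The other way round, the input lists were found less in the IgG lists, with 2.33% (1.84% to 2.92%) of antibody 1 peaks in the blocks and 41.2% (35.6% to 47.0%) in the flanks. For RNA polymerase II these shares were 15.3% (13.8% to 16.9%) and 74.3% (70.5% to 77.8%), and for antibody 2 43.6% (41.9% to 45.3%) and 79.6% (78.1% to 81.1%). Over the whole lists 19.5% of antibody 1, 52.4% of RNA polymerase II and 89.1% of antibody 2 peaks were found this way. Antibody 1 peaks against input covered 7.96% of the bases in the blocks and 0.351% in the flanks; the part of this density in the shares found again was not tested.

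**Figure D5:**
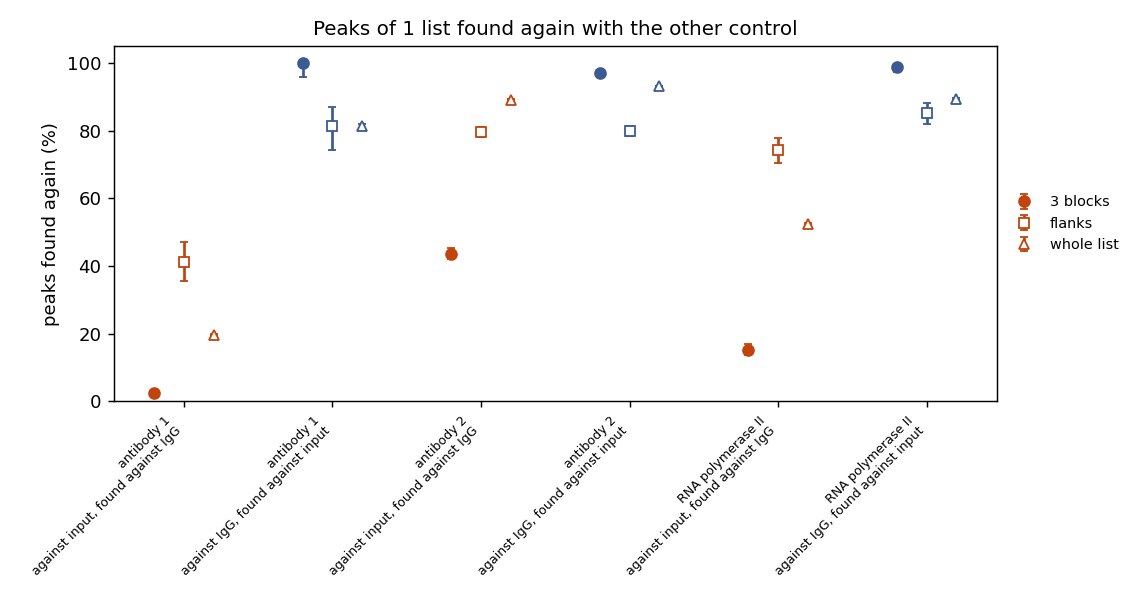
Share of the peaks of 1 list that overlap a peak of the same library called against the other control, in the 3 blocks (filled circles), their flanks (squares) and the whole list (triangles); red marks peaks called against input and blue peaks called against IgG, and bars are exact 95% binomial intervals. For antibody 1 in the blocks, 2.33% of the input list is found against IgG, and 100% of the IgG list is found against input.

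Where both controls gave an antibody 1 or RNA polymerase II peak in the blocks, the one against input was mostly the wider. Each peak against IgG was paired with the widest peak against input that it overlapped, so 1 input peak can enter several pairs. The intervals take the pairs as independent. In the blocks 84 of the 85 antibody 1 peaks called against IgG overlapped a wider peak against input, or 98.8% (93.6% to 100.0%), and the median of the width ratios, input over IgG, was 2.41. In the flanks 72.2% (63.5% to 79.8%) of 126 such pairs were wider against input and the median ratio was 1.09. For RNA polymerase II 97.4% (95.5% to 98.6%) of 494 pairs in the blocks were wider against input, with a median ratio of 3.64, compared with 65.8% (61.1% to 70.2%) of 441 pairs and 1.06 in the flanks. The RNA polymerase II peaks against input that overlapped a peak against IgG numbered 326 in the blocks and 422 in the flanks. For antibody 1 they numbered 74 and 124. The part of such repeated input peaks in the width ratios was not tested. For antibody 2 most pairs had equal widths, 1122 of 1497 in the blocks and 1960 of 2234 in the flanks. Of its pairs 24.4% (22.3% to 26.7%) were wider against input in the blocks and 5.95% (5.01% to 7.02%) in the flanks.

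The input lists of the 3 libraries overlapped only in part, in the blocks and as whole lists. In the blocks they were nevertheless dense in the same places. Of the 3172 antibody 1 peaks against input in the blocks, 29.9% (28.3% to 31.5%) overlapped an antibody 2 peak against input, in blocks of which antibody 2 peaks covered 5.67%. This share was 12.4% when at least 50% of the antibody 1 peak had to be covered and 11.7% among peaks of 200 bp or wider. In the flanks 35.9% (30.5% to 41.6%) did so, where antibody 2 peaks covered 1.92%. RNA polymerase II peaks against input were overlapped by 45.2% (43.5% to 47.0%) of the antibody 1 peaks in the blocks and 45.8% (40.1% to 51.7%) in the flanks, where they covered 9.16% and 1.06% of the bases. The whole antibody 1 list shared bases with antibody 2 at 34.8% (34.4% to 35.2%) and with RNA polymerase II at 44.9% (44.5% to 45.4%). The block share was thus below the whole-list share for antibody 2. For RNA polymerase II the interval of the block included it. Taken from the other lists, the shares were higher in the blocks than in the flanks, and so was the share of bases covered by the list overlapped. Antibody 1 peaks against input covered 7.96% of the bases in the blocks and 0.351% in the flanks, and antibody 2 peaks 5.67% and 1.92%. The part of this coverage in the overlap shares was not tested. Of the antibody 2 peaks 30.7% (29.1% to 32.2%) overlapped an antibody 1 peak in the blocks and 4.53% (3.79% to 5.36%) in the flanks, and 28.8% (27.3% to 30.4%) and 5.81% (4.97% to 6.74%) overlapped an RNA polymerase II peak. Of the RNA polymerase II peaks 55.4% (53.3% to 57.5%) overlapped an antibody 1 peak in the blocks and 22.0% (18.7% to 25.6%) in the flanks, and 35.5% (33.4% to 37.5%) and 24.3% (20.8% to 28.0%) an antibody 2 peak. The whole antibody 2 list shared bases with antibody 1 at 5.05% and with RNA polymerase II at 6.29%. For the whole RNA polymerase II list these values were 29.4% with antibody 1 and 29.6% with antibody 2.

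Sorted by both other lists, 42.4% of the antibody 1 peaks against input in the blocks overlapped neither, 27.7% RNA polymerase II alone, 17.5% both and 12.4% antibody 2 alone. The share that overlapped neither was much the same in the flanks, at 42.5% (36.9% to 48.3%). There 21.6% overlapped RNA polymerase II alone, 24.3% both and 11.6% antibody 2 alone. The median widths were 152 bp for neither, 190 bp for RNA polymerase II alone, 254 bp for both and 172 bp for antibody 2 alone. The distal chromosome 1 block differed from the other pair. There 35.8% (32.0% to 39.7%) of the antibody 1 peaks overlapped both and 20.2% (17.1% to 23.5%) neither, whereas on chromosome 11 13.7% (12.2% to 15.4%) overlapped both and 46.7% (44.4% to 49.0%) neither. In the proximal block these shares were 11.3% (9.05% to 14.0%) and 50.8% (47.0% to 54.6%). RNA polymerase II peaks against input also covered most in the distal block, at 13.1% of its bases, against 11.1% on chromosome 11 and 3.86% in the proximal block.

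The few antibody 1 peaks called against IgG overlapped the other IgG lists at shares close to those of the flanks. Of the 85, 47.1% (36.1% to 58.2%) overlapped an antibody 2 peak against IgG and 64.7% (53.6% to 74.8%) an RNA polymerase II peak against IgG. In the flanks the shares of 155 such peaks were 47.7% (39.7% to 55.9%) and 65.2% (57.1% to 72.6%). The intervals overlap widely, and equal shares do not follow from that.

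The widest antibody 1 peaks called against IgG were taken as examples, 3 in each block. In the distal chromosome 1 block the widest ran from 150336035 to 150337303 over 1269 bp. It overlapped an antibody 1 peak of 2193 bp against input, antibody 2 peaks of 1931 bp against input and 1510 bp against IgG, and RNA polymerase II peaks of 4385 bp against input and 1630 bp against IgG. The 1510 bp peak was the widest antibody 2 peak of this block against IgG. The next, from 150121566 to 150122531 over 966 bp, was likewise overlapped in all 6 lists, with an antibody 2 peak of 685 bp and an RNA polymerase II peak of 418 bp against IgG. The last, from 149223184 to 149223987 over 804 bp, lay outside the fitted borders and had similar widths with both controls for antibody 1 (896 bp against input) and RNA polymerase II (885 bp against input and 884 bp against IgG).

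In the proximal block the widest antibody 1 peak against IgG ran from 145472539 to 145473543 over 1005 bp, and the third widest, 414 bp from 145471954 to 145472367, lay just before it. At the first the widest antibody 2 peak was 1554 bp against input and 204 bp against IgG. The second widest, 559 bp from 146555465 to 146556023, overlapped a 446 bp antibody 2 peak of the same width with both controls and an RNA polymerase II peak of 836 bp against IgG. On chromosome 11 the widest ran from 121163060 to 121163813 over 754 bp, with an RNA polymerase II peak of 1452 bp against input and 1324 bp against IgG. The second, 650 bp from 119191722 to 119192371, lay close inside the left border and overlapped RNA polymerase II peaks with both controls. The third, 488 bp from 120081916 to 120082403, overlapped an antibody 2 peak of 569 bp but no RNA polymerase II peak against IgG. All 9 examples overlapped an antibody 1 peak against input that was wider.

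Of the 6 widest RNA polymerase II peaks against IgG, 2 in each block, 3 overlapped an antibody 1 peak against IgG and 3 did not. Over all 500 RNA polymerase II peaks against IgG in the blocks 9.80% (7.34% to 12.7%) did so, and 19.1% (15.8% to 22.8%) of the 517 in the flanks. In the distal chromosome 1 block the widest against IgG, from 150549179 to 150552959 over 3781 bp, overlapped 0 antibody 1 and 0 antibody 2 peaks against IgG. Against input it overlapped a peak of 6460 bp of its own library and 3 antibody 1 and 7 antibody 2 peaks. The next, from 150533435 to 150536908 over 3474 bp, overlapped 1 antibody 1 peak and 0 antibody 2 peaks against IgG, and 4 and 5 against input. In the proximal block the widest, from 145588168 to 145590153 over 1986 bp, overlapped 2 antibody 1 and 2 antibody 2 peaks against IgG, while the second, from 145396619 to 145397584 over 966 bp, overlapped none of either.

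Among the widest antibody 2 peaks against IgG, 5 of the 6 examples overlapped an antibody 1 peak against IgG. These were picked for their width: over all 1543 antibody 2 peaks against IgG in the blocks 2.66% (1.91% to 3.59%) did so, and 3.22% (2.59% to 3.94%) of the 2799 in the flanks. The exception, 374 bp from 146698404 to 146698777 in the proximal block, had the same width against input and overlapped no antibody 1 and no RNA polymerase II peak with either control. On chromosome 11 the widest, 608 bp from 119599035 to 119599642, overlapped 2 antibody 1 peaks against IgG and an RNA polymerase II peak of 4408 bp against input, where the RNA polymerase II peaks against IgG were at most 363 bp wide.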

How the data were processed

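ChIP libraries of U2932 cells for antibody 1, antibody 2 and RNA polymerase II were analysed through 6 deposited peak lists, 1 per library and control. Build hg19, MACS2 2.0.9, Bowtie 0.12.7 and SAMtools are named in the submitters' processing notes; their order, settings and the handling of duplicate reads are not given in the sources used here. Per the names of the deposited lists, the authors called peaks at q 0.1 against IgG or against input. Each list has 3 columns (chromosome, start, end) and no score, p-value or count, so depth is unknown and no precision can be derived from it. Peak calls depend on the threshold and on the control's reads in a region.

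Peaks were assigned to blocks and bins by their midpoint. Starts are printed counted from 1. Densities carry exact Poisson intervals, shares Clopper-Pearson intervals and ratios exact conditional binomial intervals; no test was made. Overlap means at least 1 bp. Named regions are the 3 widest antibody 1, 2 widest antibody 2 and 2 widest RNA polymerase II peaks against IgG in each block, and the densest bins; a few of the antibody 2 examples, which lie at the same places, are left out of the text. Alternatives were peak width, peaks touching a block, flanks of 2 Mb, bins holding a peak, 50% coverage and bins of 50 kb. The blocks, lists, stretches and rules were chosen with earlier results of these data known. No genome or annotation of build hg19 was used, so genes and sequences are not given. Python 3.11.15, NumPy 2.4.6, SciPy 1.17.1 and matplotlib 3.10.9 were used, and the procedure was tested on simulated data.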

Additional observations from a re-analysis of the deposited data

How the results depend on the processing

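Under the alternatives run, no ratio of the 3 blocks together crossed 1, and among the values for the 3 blocks together and their borders 19 moved beyond their interval. Of the other 42, the borders of the chromosome 11 block in bins of 50 kb, 119150001 and 122200000, also lie outside their interval, which was drawn on bins of 10 kb, but by less than the coarser bin. Among the values of single blocks 34 moved and 83 did not. With flanks of 2 Mb, 3 block over flank ratios against IgG whose intervals include 1 crossed it: antibody 1 in the chromosome 11 block (0.766, with flanks of 5 Mb 1.38) and in the distal chromosome 1 block (1.25, with flanks of 5 Mb 0.795), and antibody 2 in the distal block (1.02, with flanks of 5 Mb 0.898). With peaks of 200 bp or wider, peaks against input over peaks against IgG became 3.50 for antibody 2 and 3.64 for RNA polymerase II. Block over flank density became 3.67 for antibody 2 and 7.66 for RNA polymerase II against input and 1.08 (0.872 to 1.33) for antibody 2 against IgG, an interval that includes 1, and 11.7% of antibody 1 peaks overlapped antibody 2 against input. With peaks above the minimum width, antibody 2 had 2.41 for the first ratio and 3.08 for density against input, and the right border of the distal chromosome 1 block moved to 150680000. With flanks of 2 Mb, density ratios were 3.02 (antibody 2) and 7.03 (RNA polymerase II) against input and 1.82 (RNA polymerase II) against IgG. With only bins that hold a peak, they were 21.0 (antibody 1), 2.41 (antibody 2) and 7.48 (RNA polymerase II) against input, and 1.10 (antibody 2) and 1.92 (RNA polymerase II) against IgG. With 50% of the peak covered, 12.4% of antibody 1 peaks overlapped antibody 2 and 36.8% RNA polymerase II, lower by construction; the cause of the other shifts was not tested. No paired analysis was possible because each antibody and control has 1 library. With no score in the lists, a stricter threshold was not run, and a minimum width took its place.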
